A study of Mus musculus with 4 samples.

Results

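The numbered Zfp genes are mouse genes named with Zfp and a number, and most encode proteins built from C2H2 zinc fingers. Members were selected on their name, Zfp followed only by digits and without Zfp36, and on a summed count of at least 50 over the 4 libraries. This gave 285 members of 336 numbered Zfp names and of 24421 genes in the table. The rule itself uses no difference between the groups, but the members were chosen with earlier results of these data known. All 285 members also entered the test, whose filter on low counts kept 12656 genes.

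The study sequenced RNA of lung lymphatic endothelial cells taken from mice at postnatal day 0 (P0), the day of birth, and compared cells with and without a conditional deletion of the transcription factor gene Jun. Cells were sorted for CD31 and green fluorescence and against CD45. The Jun-Ctrl group carried Prox1-CreER, Junf/+ and Rosa26-mTmG, and the Jun-cKO group carried Prox1-CreER, Junf/f and Rosa26-mTmG. Both groups therefore carried the inducible Cre driven by Prox1, at least 1 floxed Jun allele and the reporter that turns cells green after recombination, and the comparison is of 1 against both floxed alleles. Each group pooled cells of 3 to 5 animals, and the RNA was amplified before sequencing, so the 2 libraries of a group may share animals. The spread between libraries that every p-value here rests on may therefore be technical.

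A C2H2 zinc finger is a short fold held by a zinc ion, and a row of such fingers reads a stretch of DNA. Many of these proteins also carry a KRAB box, which recruits the scaffold protein Trim28 (KAP1) and with it enzymes that silence chromatin, and transposable elements are known targets. Members without a KRAB box are a mixed set, with activators, repressors and proteins that act on RNA or on the spindle. KRAB genes arose by repeated local duplication, so relatives often lie side by side and share sequence.

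The libraries held 16037416 and 6483514 counts in Jun-Ctrl and 15558476 and 6911821 in the libraries labelled Jun-cKO. Jun did not fall with its label. Its level was 472 and 433 CPM (counts scaled to library size) in Jun-Ctrl and 524 and 475 in the libraries labelled Jun-cKO. The log2 difference was 0.14, with an SE of 0.12 and an edgeR adjusted p of 0.354, and with a correction for GC content it was 0.38 (adjusted p = 0.00752). Jun-cKO is therefore used below as a label. Of 7 tested lymphatic markers, 3 were higher and 1 lower in the libraries labelled Jun-cKO, with summed levels of 11888 to 13086 CPM in Jun-Ctrl and 17201 to 17809 CPM in the others, and Ccl21a was at 0. Of 13 lung epithelial markers, 12 were lower (1618 to 1689 CPM against 153 to 155 CPM), and so were all 6 tested immune markers (445 to 456 CPM against 179 to 201 CPM, with Cd3e at 0) and 5 of 8 mesenchymal markers (324 to 328 CPM against 104 to 111 CPM). These cell types move with the group in every result below, and their part in it was not tested. In such bulk RNA, fewer cells of a type and less RNA per cell cannot be told apart.

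Most numbered Zfp genes were expressed at a low level, and those that differed were more often higher than lower in the libraries labelled Jun-cKO. With the quasi-likelihood test of edgeR, Benjamini-Hochberg adjusted over all tested genes, and an adjusted p under 0.05 as the threshold, 88 of 285 members were higher (30.9%) and 27 were lower (9.47%). Over all tested genes 19.0% were higher and 22.5% were lower, or 41.5% in either direction. The median log2 fold change of the members was 0.26, and that of all tested genes was 0.01. It was above 0 in 199 members and below 0 in 86. In 146 members both libraries labelled Jun-cKO lay above both of Jun-Ctrl, and in 55 both lay below, where the same held for 35.4% and 35.9% of all tested genes. The other 84 members overlapped between the groups. Changes were mostly small: 22 members were called with a rise of 2-fold or more (2.45% of all tested genes) and 10 with a fall of that size (10.7% of all tested genes). The median of the members was 0.24 in each of the 4 pairings of a library labelled Jun-cKO with a Jun-Ctrl library, on the log2 scale, against -0.02 between the Jun-Ctrl libraries and -0.01 between the others. DESeq2's Wald test called fewer, with 52 members higher and 17 lower (12.4% and 16.0% of all tested genes). With a floor of 200 summed counts, 75 members were higher and 19 were lower, with a median of 0.31. The number of members above that floor was not taken, so these counts are not shares. The median log2 fold change of the members was 0.27 without Jun-Ctrl 1 and 0.22 without Jun-Ctrl 2. Fewer members were called in those fits, and fewer of all tested genes.

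**Figure D1:**
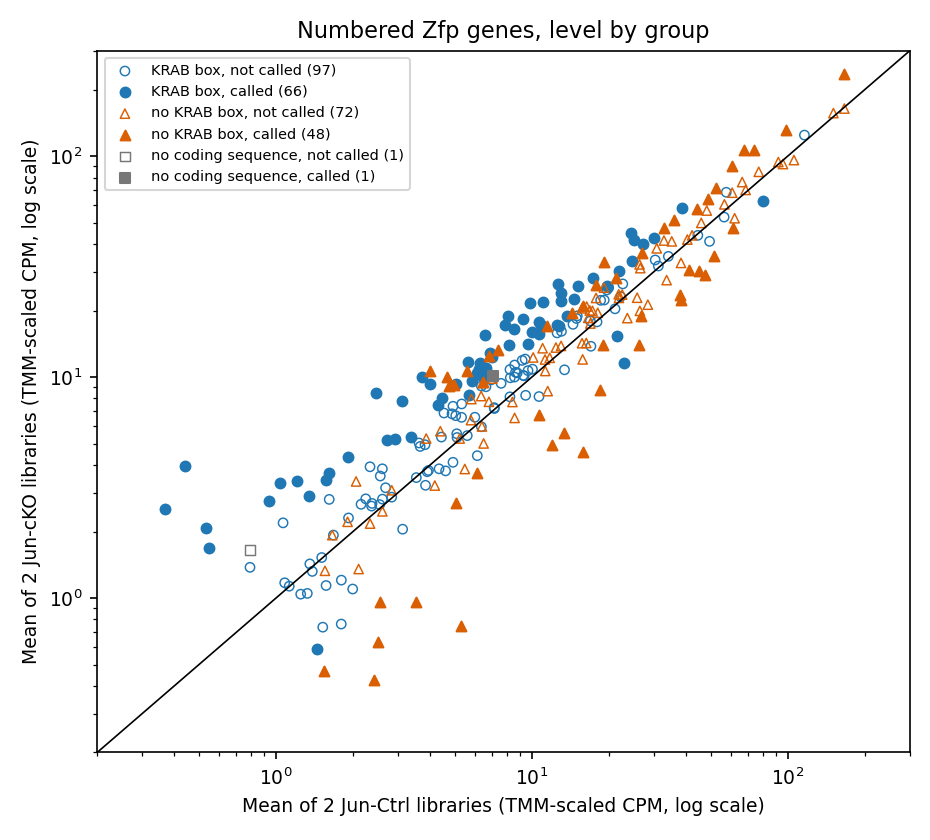
Each point is 1 numbered Zfp gene, with its mean over the 2 Jun-Ctrl libraries on the x axis and over the 2 libraries labelled Jun-cKO on the y axis (scaled CPM, log axes), coloured by KRAB box and filled where called at an adjusted p under 0.05. The 62 called KRAB members above the line of equal level stand against 4 below it, while called members without a KRAB box lie on both sides, 25 above and 23 below.

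The counts at the edge of the selection show how low it reaches. Just inside it, Zfp442 had 30, 7, 9 and 4 counts in Jun-Ctrl 1, Jun-Ctrl 2, Jun-cKO 1 and Jun-cKO 2, and Zfp78 had 25, 10, 9 and 6. Just outside it, Zfp112 had 5, 4, 19 and 20 counts, and Zfp455 had 11, 1, 20 and 14. Summed counts of the members ran from 50 to 9124 with a median of 442. In RPKM, reads scaled to both gene length and library size so that genes can be compared, the median level was 2.87.

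The members fell into groups by their encoded domains. A search of annotated proteins found a KRAB box in 163 members (57.2%) and none in 120, and 2 members, Zfp389 and Zfp783, had no coding sequence in the annotation. Proteins of the members held 0 to 40 C2H2 fingers by a sequence pattern, with a median of 12 in KRAB members and 7.5 in the rest. KRAB members were expressed at a lower level, with a median of 2.15 RPKM and a highest value of 19.5, than members without the box, with a median of 4.14 RPKM and a highest value of 45.4.

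The higher calls were mostly KRAB genes. Among 163 KRAB members, 62 were higher (38.0%) and 4 were lower (2.45%), and the median log2 fold change was 0.39. Among 120 members without the box, 25 were higher (20.8%) and 23 were lower (19.2%), with a median of 0.09. These shares stand beside 19.0% and 22.5% of all tested genes. The classes also differed in transcript GC content. At 40 to 45% GC, 40% of 60 KRAB members and 42.1% of 19 without the box were higher. At 45 to 50% GC the shares were 24.1% of 29 and 26.9% of 26. In the other GC classes the KRAB share was the larger, as under 40% GC, with 46.9% of 49 against 25% of 8. Whether the classes differ at like GC was not tested. The KRAB median was between 0.35 and 0.41 in all 4 pairings of libraries across the groups, and -0.04 and -0.01 between libraries of the same group. The 57 other tested genes with a KRAB box, whose names do not follow the Zfp pattern, had 18 higher and 3 lower, with a median of 0.45. In 52 tested Zbtb, Zscan and Zkscan genes, related zinc finger families, 19 were higher and 8 were lower, with a median of 0.24. Whether the members differ from these families was not tested. Without Jun-Ctrl 1 the median was 0.42 in KRAB members and 0.06 in members without the box. Without Jun-Ctrl 2 these medians were 0.35 and 0.08, and without Jun-cKO 1 they were 0.41 and 0.06. Fewer members of both classes were called in these fits, and fewer of all tested genes.

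Among KRAB members, Zfp763 had the largest rise in the set named by fold change, which left out genes under 50 counts on average and those whose groups overlap. Zfp763 (chr17:33016863-33033402, mm10) had 2.61 and 2.29 CPM in Jun-Ctrl and 7.01 and 9.89 CPM in the libraries labelled Jun-cKO. The fold was 3.26, with a log2 difference of 1.71 (SE 0.28, edgeR adjusted p = 3.13e-06). Its neighbour Zfp472 (chr17:32965814-32979233), also a KRAB gene, had 9.16 and 10.6 CPM against 19.5 and 23.9 CPM. Zfp472 rose 2.21-fold (log2 1.14, SE 0.19, edgeR adjusted p = 2.44e-06). In both genes, whose separation of the groups was required by the selection, the Jun-cKO 2 library was the highest.

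Zfp595 (chr13:67312998-67332570) encodes a KRAB protein with 18 fingers by the pattern. Its level was 8.55 and 7.65 CPM in Jun-Ctrl and 17.2 and 20.7 CPM in the libraries labelled Jun-cKO, a 2.28-fold rise (log2 1.19, SE 0.19, edgeR adjusted p = 2.22e-06). Zfp597 had 7.64 and 8.11 CPM against 15.5 and 18.9 CPM and rose 2.16-fold (log2 1.11, edgeR adjusted p = 1.1e-05). Zfp747 had 5.64 and 5.66 CPM against 11.6 and 11.8 CPM and rose 2.07-fold (log2 1.05, edgeR adjusted p = 0.000136). In Zfp747 the libraries of a group were closest to each other among these genes. Zfp626, Zfp748, Zfp758 and Zfp949 complete the KRAB genes of the set, with log2 rises of 1.34, 1.20, 1.18 and 1.08. In Zfp949 the Jun-Ctrl libraries differed from each other, with 5.28 and 2.75 CPM, against 8.78 and 9.89 CPM in the others.

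Zfp420, with 19 fingers and no KRAB box found in its annotated protein, was the only gene without the box among these 10. Its level was 4.91 and 3.06 CPM in Jun-Ctrl and 9.96 and 11.4 CPM in the libraries labelled Jun-cKO, a log2 rise of 1.31 (SE 0.24, edgeR adjusted p = 2.32e-05). The largest log2 values of all members came from genes below the floor of 50 mean counts and were picked out after their values were seen. Zfp759 had 2, 4, 32 and 20 counts, in the order given for Zfp442, and a fitted log2 difference of 3.13. Zfp882 had 12, 1, 64 and 25 counts and a fitted difference of 2.83. Both genes reached the summed count of 50 only through the libraries labelled Jun-cKO, where they were high. The selection therefore favours a large fitted rise in them. At such counts the fitted size depends on the small number added to each count, and without Jun-Ctrl 1 Zfp759 had a difference of 1.95 (edgeR adjusted p = 0.0704).

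Lower calls were rare among KRAB members. The 4 were Zfp442, Zfp213, Zfp46 and Zfp746. Zfp213 (chr17:23556767-23564238) had 22.9 and 22.8 CPM in Jun-Ctrl and 11.7 and 11.5 CPM in the libraries labelled Jun-cKO, and fell by 0.98 on the log2 scale (SE 0.17, edgeR adjusted p = 1.31e-05). The groups stood far apart and the libraries within each nearly coincided. Zfp746 (PARIS), a repressor of Ppargc1a and a substrate of the ligase parkin, was expressed at 19.5 RPKM on average. It had 78.2 and 81.4 CPM against 62.1 and 63.6 CPM, a log2 difference of -0.34 (SE 0.12, edgeR adjusted p = 0.0196). With a correction for GC content its difference was -0.08 (adjusted p = 0.599), and DESeq2's adjusted p was 0.0549. The call was also lost without Jun-Ctrl 1, Jun-Ctrl 2 or Jun-cKO 1 (adjusted p = 0.0795, 0.107 and 0.0687). Zfp442 and Zfp46 lost theirs under DESeq2 (adjusted p = 0.262 and 0.0886). Both calls were also lost without Jun-Ctrl 2 (log2 -1.63 and -0.48) or without Jun-cKO 1 (log2 -1.39 and -0.41). That of Zfp442 was lost without Jun-cKO 2 (log2 -1.38) and that of Zfp46 without Jun-Ctrl 1 (log2 -0.53).

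**Figure D2:**
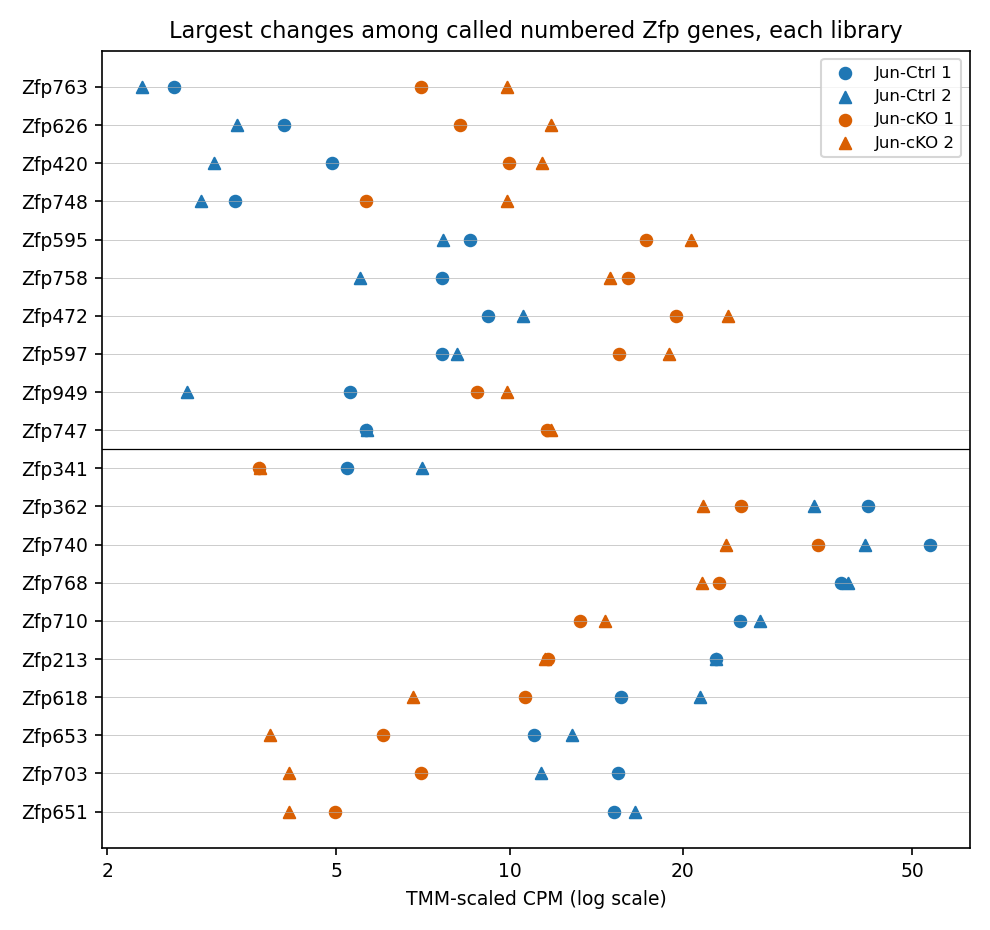
The 10 highest and 10 lowest log2 fold changes among called numbered Zfp genes that average 50 counts or more and whose groups do not overlap, with the scaled CPM of each of the 4 libraries on a log axis (blue, Jun-Ctrl; orange, labelled Jun-cKO; circles, library 1; triangles, library 2). In the upper rows both orange points lie to the right of both blue points, as for Zfp763 at 7.01 and 9.89 CPM against 2.61 and 2.29, and in the lower rows to the left.

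The lowest set held 9 genes without a KRAB box besides Zfp213. Zfp651 (chr9:121759330-121771742), with 9 fingers, led it: 15.2 and 16.5 CPM in Jun-Ctrl stood against 4.98 and 4.13 CPM in the libraries labelled Jun-cKO. It was 3.36-fold lower, a log2 difference of -1.75 (SE 0.22, edgeR adjusted p = 6.39e-09). Zfp703, a transcriptional repressor of the NET family, had 15.4 and 11.3 CPM against 7.01 and 4.13 CPM and fell by 1.21 on the log2 scale (SE 0.22, edgeR adjusted p = 2.19e-05). Within each group its libraries lay further apart than those of Zfp651. Zfp653 and Zfp618 fell by 1.18 and 0.99, Zfp710 by 0.92, Zfp768 by 0.76, Zfp740 by 0.70 and Zfp362 by 0.69, all on the log2 scale. Zfp341, known as an activator of Stat3 transcription, had 5.22 and 7.04 CPM against 3.67 and 3.69 CPM, a log2 difference of -0.68 (SE 0.28, edgeR adjusted p = 0.0431). That call was lost under DESeq2 (adjusted p = 0.182) and with the GC correction (adjusted p = 0.371), and without any 1 of the 4 libraries. Zfp740 and Zfp362 lost theirs without Jun-Ctrl 1 (adjusted p = 0.0934 and 0.0596). Below the count floor, and again picked out after their values were seen, Zfp575 had 37, 17, 4 and 4 counts and Zfp628 had 81, 37, 16 and 3. Their fitted differences were -2.65 and -2.60.

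The 12 most highly expressed members per length had no KRAB box, apart from Zfp746. Zfp706, a small protein with 1 finger, was the highest at 45.4 RPKM. It had 174 and 157 CPM in Jun-Ctrl and 240 and 231 CPM in the libraries labelled Jun-cKO, a log2 rise of 0.51 (SE 0.11, edgeR adjusted p = 0.000395). Zfp207 (BuGZ), a spindle protein that binds the checkpoint protein Bub3, was next at 44.4 RPKM, with 172, 161, 177 and 152 CPM in the same order. Its groups overlapped, and the log2 difference was -0.02 (SE 0.12, edgeR adjusted p = 0.916). Zfp512, at 26.5 RPKM, had 71.4 and 64.1 CPM against 118 and 95.8 CPM, a log2 rise of 0.66 (SE 0.12, edgeR adjusted p = 2.52e-05). Zfp664, Zfp580 and Zfp637 differed by 0.05, 0.06 and 0.11 on the log2 scale and did not pass the test, while Zfp511 rose by 0.57 (edgeR adjusted p = 0.00472), a call lost without Jun-Ctrl 1 (adjusted p = 0.162). With the GC correction Zfp580 was higher by 0.66 (adjusted p = 0.000201).

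A list of 12 zinc finger proteins that act on RNA, the ribosome or the spindle had 6 higher and 0 lower members, beside 19.0% and 22.5% of all tested genes, with a median log2 fold change of 0.36. Zfp326, a subunit of the DBIRD complex that links splicing to RNA polymerase II, had 79.4 and 67.9 CPM in Jun-Ctrl and 103 and 110 CPM in the libraries labelled Jun-cKO (log2 0.52, SE 0.12, edgeR adjusted p = 0.000476). Zfp638, a nuclear RNA-binding protein also known to work with the HUSH silencing complex, had 63.1 and 58.3 CPM against 76.7 and 105 CPM (log2 0.56, SE 0.13, edgeR adjusted p = 0.000499). In both genes the groups did not overlap, and in Zfp638 the libraries labelled Jun-cKO differed from each other more than those of Jun-Ctrl. Zfp622, which takes part in maturation of the large ribosomal subunit, had 49.3 and 48.2 CPM against 64 and 63.9 CPM (log2 0.39, SE 0.13, edgeR adjusted p = 0.0113). The nucleolar protein Zfp330 rose by 0.45 and the ribosome assembly factor Zfp593 by 0.43. Zfp706, described above, is also among the 6, and Zfp593 was named after its values were seen, to complete them. Without Jun-Ctrl 1 the calls of Zfp622 and Zfp593 were lost, and without Jun-Ctrl 2 those of Zfp326, Zfp330, Zfp622 and Zfp593.

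Of 3 members with ubiquitin or SUMO ligase activity, 0 passed edgeR's test, where 41.5% of all tested genes did. Also 0 passed DESeq2's, where 12.4% of all tested genes were higher and 16.0% lower. At an unadjusted edgeR p under 0.05 the count was 1, Zfp451, and the share of all tested genes there was not taken. So few genes set no contrast with the background. Zfp598, the ligase that marks collided ribosomes, had 91.6 and 92.3 CPM against 98.3 and 89.8 CPM, with overlapping groups (log2 0.04, SE 0.12, edgeR adjusted p = 0.831). With the GC correction its value was 0.46 (adjusted p = 0.000953). Zfp91 had 102 and 109 CPM against 98.4 and 93.6 CPM (log2 -0.14, edgeR adjusted p = 0.366).

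A list of 16 measured members studied in pluripotency or lineage choice had 4 higher, 4 lower and a median of -0.01, counts that are near the shares over all tested genes, 19.0% higher and 22.5% lower. Zfp281, a GC-box binding factor of embryonic stem cells, had 54.6 and 48.8 CPM in Jun-Ctrl and 37.2 and 33.5 CPM in the libraries labelled Jun-cKO, and fell by 0.55 on the log2 scale (SE 0.14, edgeR adjusted p = 0.00105). Zfp608 had 5.94 and 5.2 CPM against 10.5 and 10.8 CPM and rose by 0.90 (SE 0.22, edgeR adjusted p = 0.00104). The libraries of each group lay close together for Zfp608. Zfp219, a partner of Sox9, was low throughout, with 1.94 and 3.06 CPM against 0.524 and 0.738 CPM (log2 -1.96, SE 0.49, edgeR adjusted p = 0.00114). The other called genes of the list, named after their values were seen, were Zfp521 (log2 0.42), Zfp217 (0.51), Zfp644 (0.39) and Zfp335 (-0.93), besides Zfp703. Zfp521, a regulator of haematopoietic and other progenitors, had 96.1 and 100 CPM against 125 and 138 CPM. The calls of Zfp281 and Zfp521 were lost without Jun-Ctrl 1 (adjusted p = 0.0566 and 0.0862), that of Zfp217 without Jun-Ctrl 2 (0.111) and that of Zfp219 without Jun-cKO 1 (0.058). Under DESeq2 those of Zfp644 and Zfp335 were lost (0.0653 and 0.133), as they were with the GC correction (0.195 and 0.168).

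The partners of Zmynd8 in the Z3 complex, Zfp687, Zfp592 and Zfp532, were all measured. Of these 3 genes 2 were lower and 0 higher, beside 22.5% and 19.0% of all tested genes. Zfp687 had 3.7 and 3.37 CPM in Jun-Ctrl and 0.59 and 1.33 CPM in the libraries labelled Jun-cKO, and fell by 2.08 on the log2 scale (SE 0.42, edgeR adjusted p = 9.07e-05). Zfp592 had 47.3 and 42.5 CPM against 32.2 and 28.2 CPM and fell by 0.57 (SE 0.14, edgeR adjusted p = 0.00107). Zfp532 did not pass the test, with a log2 difference of 0.20 (edgeR adjusted p = 0.18). The 2 lower genes were apart between the groups, and the call of Zfp592 was lost without Jun-Ctrl 1 (adjusted p = 0.0566).

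Of 8 measured members studied as silencers of retroelements or as keepers of imprints, 1 was higher (12.5%) and 0 were lower, with a median of 0.25. Over all tested genes 19.0% were higher and 22.5% lower, so so few genes set no contrast with that background. Zfp445, which protects imprinted methylation with Zfp57, was the most abundant by count, at 124 and 108 CPM in Jun-Ctrl and 127 and 122 CPM in the libraries labelled Jun-cKO (log2 0.09, SE 0.12, edgeR adjusted p = 0.542, and -0.07 with the GC correction). Zfp57 had 19.4 and 25.1 CPM against 22.6 and 23.6 CPM (log2 0.08, and -0.04 with the GC correction). Zfp568, which silences a placental transcript of Igf2, and Zfp809, which silences proviruses in embryonic stem cells, differed by 0.17 and 0.50 (edgeR adjusted p = 0.367 and 0.101). The 1 called gene was Zfp708 (log2 1.14, SE 0.40, edgeR adjusted p = 0.0197), with 1.15 and 1.53 CPM against 2.56 and 3.25 CPM. Every 79-base window of its transcript also occurred in a transcript of another gene, so its count is uncertain, and the call was lost under DESeq2 (adjusted p = 0.155). Zfp445, Zfp57, Zfp568 and Zfp809 were named after their values were seen.

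The silencing machinery that KRAB proteins recruit did not move as 1 block. Of 20 tested genes, 6 were higher (30%) and 3 were lower (15%), beside 19.0% and 22.5% of all tested genes. Their median log2 fold change was 0.07, and whether they differ from all tested genes was not tested. With the GC correction, Fam208a was the only 1 of the 6 higher genes to keep its call, Chd3 and Mphosph8 kept theirs among the lower, and Mta1 and Dnmt1 were called higher. Trim28, the scaffold that the KRAB box binds, had 138 and 155 CPM in Jun-Ctrl and 89.7 and 91.8 CPM in the libraries labelled Jun-cKO, and fell by 0.68 on the log2 scale (SE 0.12, edgeR adjusted p = 6.12e-06). With the GC correction the difference was -0.24 (adjusted p = 0.0639). Chd3, a subunit of the NuRD deacetylase complex, had 42.5 and 47.1 CPM against 25.2 and 23.2 CPM and fell by 0.88 (SE 0.15, edgeR adjusted p = 3.55e-06). Mphosph8, the HUSH subunit that reads methylated histone H3, fell by 0.46, while Fam208a (Tasor), another HUSH subunit, had 22.1 and 21 CPM against 33.7 and 36.8 CPM and rose by 0.70 (SE 0.15, edgeR adjusted p = 0.000252). Setdb1, the histone methyltransferase, named after its value was seen, rose by 0.37, a call lost under DESeq2 (adjusted p = 0.147) and with the GC correction (adjusted p = 0.0695). That of Mphosph8 was lost without Jun-Ctrl 1 (adjusted p = 0.0813) or Jun-cKO 1 (0.0845).

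**Figure D3:**
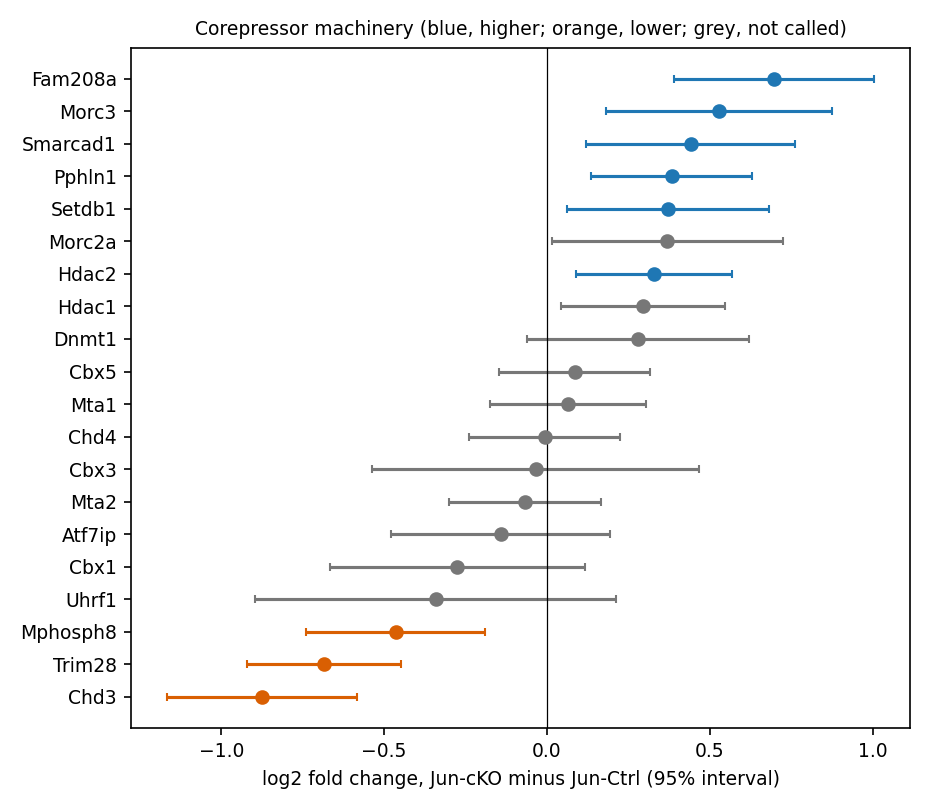
Fitted log2 fold change (libraries labelled Jun-cKO minus Jun-Ctrl) of 20 genes of the KRAB corepressor machinery, with the 95% interval of the edgeR fit over 2 libraries a group. The 6 genes called higher lead from Fam208a at 0.70, and the 3 called lower end with Trim28 at -0.68 and Chd3 at -0.88. After GC correction, Fam208a, Chd3 and Mphosph8 keep their calls and the other 6 genes lose them.

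Differences among members moved with the GC content of their transcripts. KRAB members had a median GC of 42.2% and the rest of 51.3%. In transcripts under 40% GC, 25 of 57 members were higher and 1 was lower, and their median log2 fold change was 0.42, while tested genes outside the members had a median of 0.22, with 32.2% higher and 9.54% lower. In those of 55% or more, 4 of 48 members were higher and 19 lower, with a median of -0.36 (8.33% and 39.6%). The other genes of that class had a median of -0.31, with 8.43% higher and 41.7% lower, near the shares of the members. In the classes between, the medians of the members were 0.39, 0.30 and 0.16 and those of the other genes 0.19, 0.11 and -0.05, in order of rising GC. Spearman's rho between GC and log2 fold change was -0.421 over the 285 members, which share the same 4 libraries, and -0.326 over the other tested genes. With a correction for GC content in each library, 78 members were higher and 25 lower, beside 19.9% and 19.6% of all tested genes, and their median was 0.18. Of the 163 KRAB members, 46 were then higher and 7 lower, with a median of 0.20. Of the 120 without the box, 31 were higher and 18 lower, with a median of 0.12. Of the 115 calls, 87 were shared between the fits.

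**Figure D4:**
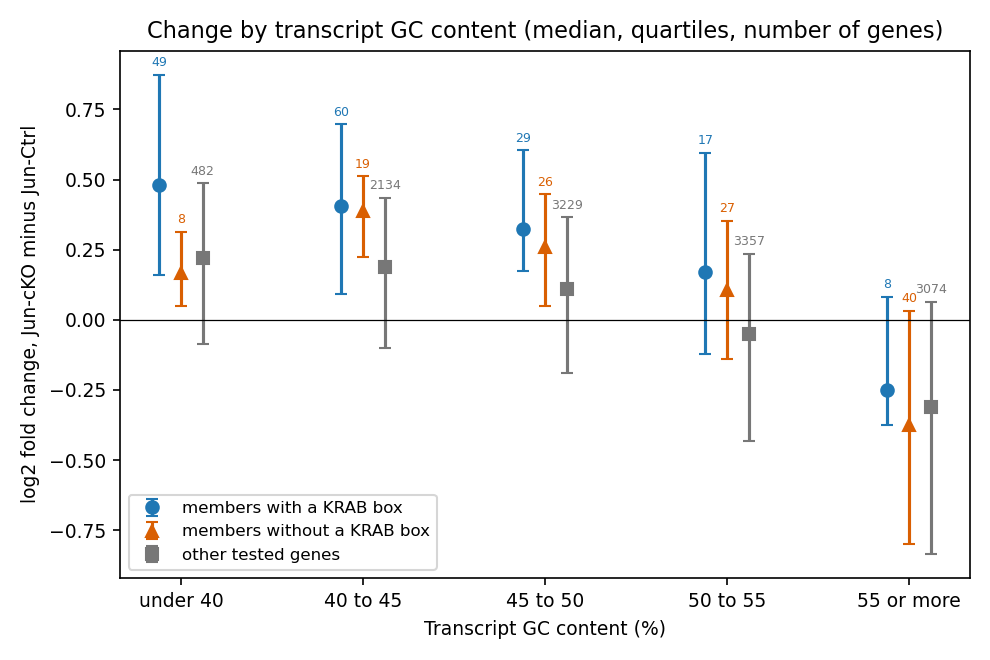
Median (point) and quartiles (bars) of the log2 fold change, libraries labelled Jun-cKO minus Jun-Ctrl, by GC content of the transcript, with the number of genes above each bar, for KRAB members, members without the box and the other tested genes. The medians are lower at high GC in all 3 sets. Below 40% GC the median is 0.48 in 49 KRAB members, 0.17 in 8 members without the box and 0.22 in 482 other genes. At 40 to 45% GC the medians of the KRAB members and of those without the box are 0.41 and 0.39.

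By level, 12 of 46 KRAB members under 4 CPM were higher and 1 was lower, where 8.42% and 32.9% of tested genes outside the members at that level were. At 4 to 16 CPM, 34 of 79 were higher and 0 lower, beside 12.3% and 26.6%. At 16 to 64 CPM, 16 of 36 were higher and 2 lower, beside 20.4% and 20.7%. Neither KRAB member above that level, Zfp445 and Zfp746, was higher. Members without the box had 0 higher and 7 lower of 16 under 4 CPM, and 5 higher and 0 lower of 14 at 64 CPM or more, where 30.2% of the other genes were higher and 14.3% lower. Differences between level classes were not tested, and Spearman's rho of level with log2 fold change was 0.02 over the 163 KRAB members, which share the 4 libraries. By number of fingers, the median log2 fold change was 0.08 in 33 members with 0 to 3 fingers, 0.03 in 47 with 4 to 7, 0.25 in 87 with 8 to 11, 0.31 in 68 with 12 to 15 and 0.38 in 48 with 16 or more. After GC correction these medians were 0.33, 0.08, 0.17, 0.19 and 0.29.

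Many members lie side by side on a chromosome. With a gap of at most 500 kb between neighbours, 12 neighbourhoods of at least 5 members held 119 of the 285. The largest lay on chr17:21008903-23599487 (mm10) and held 20 members, all with a KRAB box, from Zfp160 to Zfp13. In it 15 were higher, 1 was lower (Zfp213) and the median log2 fold change was 0.78, or 0.54 with the GC correction. Among its members, picked out after their values were seen, Zfp945 had 27.1 and 21.7 CPM in Jun-Ctrl and 47.5 and 42.1 CPM in the libraries labelled Jun-cKO, and Zfp942 had 14.7 and 10.7 CPM against 23.4 and 29.4 CPM. Both were apart between the groups, with log2 differences of 0.86 and 0.99. A KRAB neighbourhood of 16 members on chr13:67038596-67827002 had 8 higher and 0 lower, with a median of 0.78, or 0.63 with the correction. The neighbourhood of 15 members on chr7:29768552-30169750, of which 12 had a KRAB box, had 6 higher and 0 lower, with a median of 0.32. The 11 members on chr17:32765496-33631779, with Zfp472 and Zfp763 among them, had 4 higher and 1 lower. Another 11 on chr7:24081924-25227507 had 3 higher and 2 lower. In the order given, 75%, 50%, 40%, 36.4% and 27.3% of these members were higher, and 5%, 0%, 0%, 9.09% and 18.2% lower. Over all tested genes the shares were 19.0% higher and 22.5% lower, and over KRAB members 38.0% and 2.45%. Differences between neighbourhoods and these shares were not tested. Neighbours can share sequence, so they are not counted as independent. In 25 of the 285 members at least 10% of the 79-base windows of the transcript also occurred in another gene's transcript. That other gene could be any annotated gene, a neighbour or not. Among the members under 10%, 58 of 142 KRAB genes were higher and 3 were lower, with a median of 0.42.

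**Figure D5:**
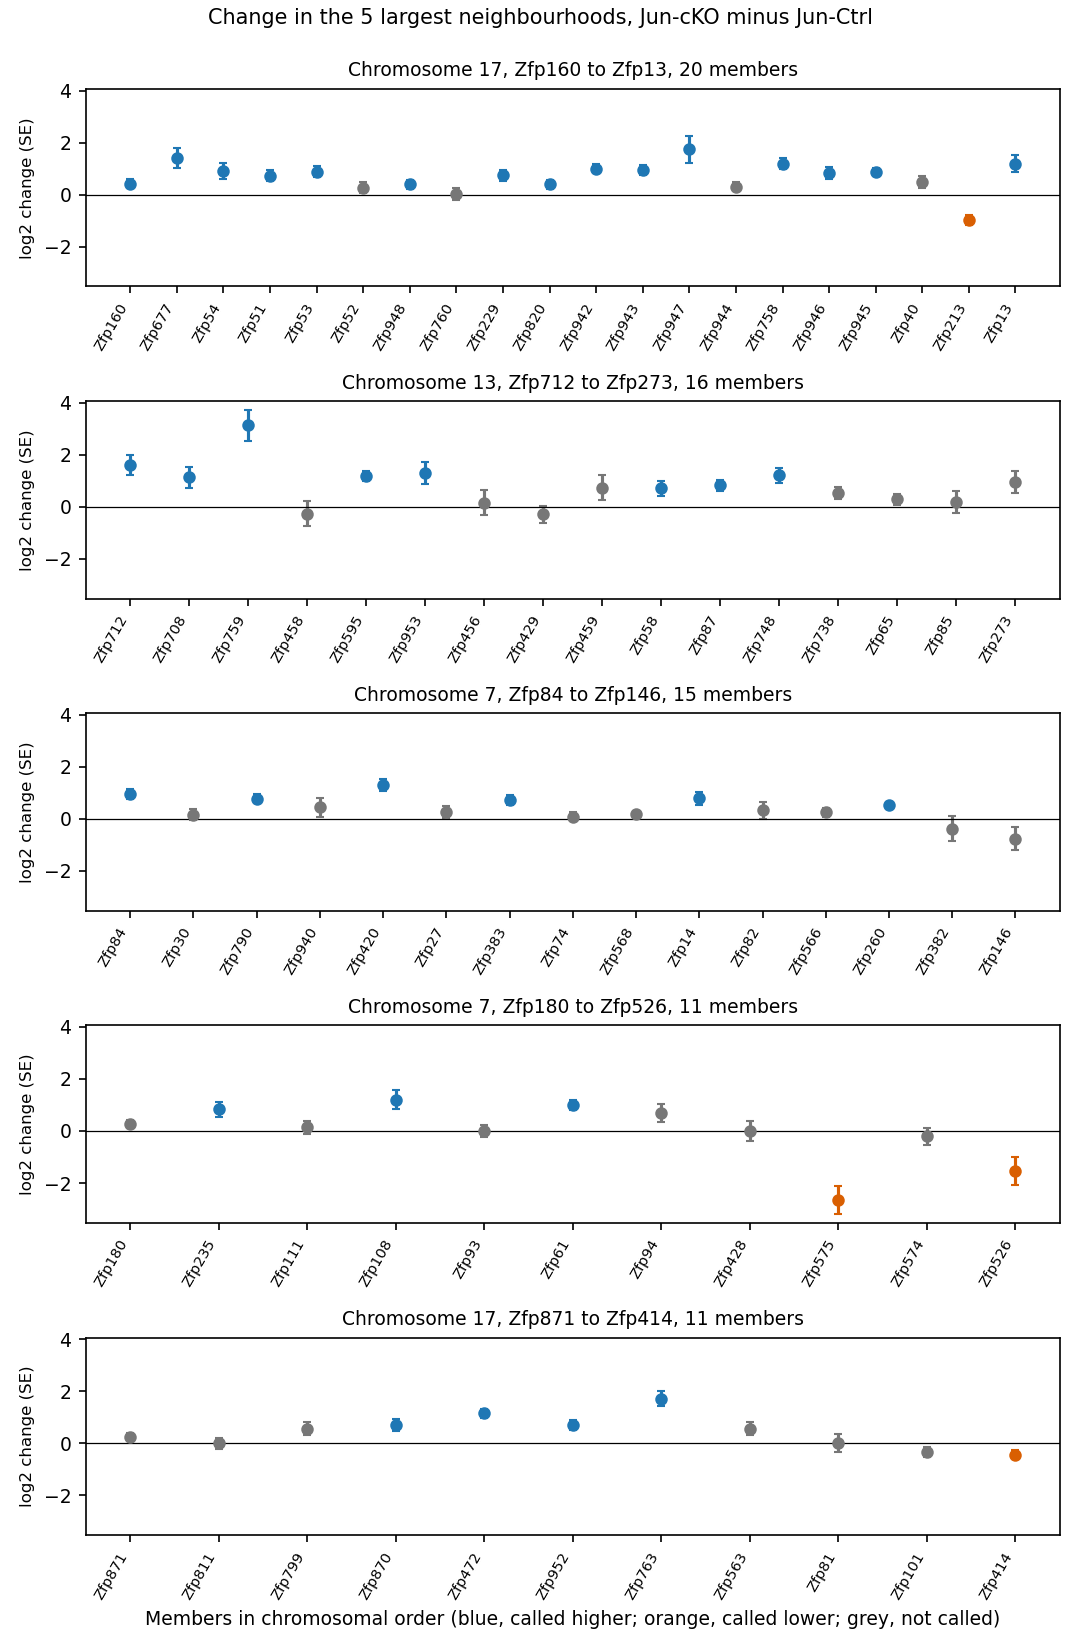
Fitted log2 fold change with its SE for the members of the 5 largest neighbourhoods, in chromosomal order, libraries labelled Jun-cKO minus Jun-Ctrl (blue, called higher; orange, called lower; grey, not called). In the top panel 15 of 20 members are blue and Zfp213 is the only orange one.

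Jun binds DNA as part of AP-1 dimers, at the motif TGACTCA, which reads TGAGTCA on the other strand, and some dimers bind the related motif TGACGTCA. Promoter windows of 250 bases before to 50 after the annotated start were found for 237 members in RefSeq's GRCm38.p6 annotation, and both strands were searched. The AP-1 motif was in 8 windows (3.38%) and the TGACGTCA motif in 6 (2.53%), where 5.17% and 1.88% of all 27025 promoters held them, and 3.51% and 3.29% of the promoters of 9417 tested genes outside the members. Neither motif contains the other. Of 75 members with a window that were called higher, 4 held the AP-1 motif (Zfp511, Zfp672, Zfp790 and Zfp869) and 2 the other (Zfp595 and Zfp953). Of 22 that were called lower, 0 held the AP-1 motif and 1, Zfp335, held TGACGTCA. The windows of Zfp511, Zfp672 and Zfp869 also hold a motif in called members and are not shown. The 4 windows below hold a motif, in capitals, in members that were called. They are chr7:29815822-29816121 on the plus strand, and chr13:67332511-67332810, chr13:67360523-67360822 and chr2:164911701-164912000 on the minus strand. Each spans the start of the gene it is named for and is written 5′ to 3′ on that gene's strand.
Zfp790: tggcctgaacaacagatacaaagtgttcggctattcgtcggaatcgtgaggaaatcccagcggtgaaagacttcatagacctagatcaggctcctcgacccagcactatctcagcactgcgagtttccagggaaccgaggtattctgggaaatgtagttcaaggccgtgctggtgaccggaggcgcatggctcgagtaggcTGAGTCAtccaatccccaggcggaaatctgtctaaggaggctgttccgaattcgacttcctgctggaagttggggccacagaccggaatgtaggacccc
Zfp595: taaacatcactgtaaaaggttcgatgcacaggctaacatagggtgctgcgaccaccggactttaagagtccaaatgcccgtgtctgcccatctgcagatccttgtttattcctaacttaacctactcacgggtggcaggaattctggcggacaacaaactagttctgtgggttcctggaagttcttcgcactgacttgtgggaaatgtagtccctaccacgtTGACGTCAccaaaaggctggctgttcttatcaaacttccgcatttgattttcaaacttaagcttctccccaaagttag
Zfp953: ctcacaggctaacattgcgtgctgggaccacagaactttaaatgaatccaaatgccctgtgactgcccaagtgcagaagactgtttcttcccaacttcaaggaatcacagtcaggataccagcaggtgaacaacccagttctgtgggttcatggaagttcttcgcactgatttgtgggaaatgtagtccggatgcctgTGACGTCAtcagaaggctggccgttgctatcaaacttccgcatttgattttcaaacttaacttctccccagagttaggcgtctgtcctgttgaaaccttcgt
Zfp335: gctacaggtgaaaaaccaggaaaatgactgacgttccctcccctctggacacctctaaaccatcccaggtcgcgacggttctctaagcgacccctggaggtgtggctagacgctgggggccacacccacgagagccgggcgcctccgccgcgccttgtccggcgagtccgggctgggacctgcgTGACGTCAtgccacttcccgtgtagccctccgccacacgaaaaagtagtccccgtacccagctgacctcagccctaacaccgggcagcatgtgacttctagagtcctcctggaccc
Zfp595 and Zfp953 are KRAB genes of the chromosome 13 neighbourhood, and their windows had 228 identical bases in 329 aligned columns (69.3%), so the motif in both is not 2 independent matches. Zfp953, picked out for its window, had 21, 4, 34 and 22 counts in the order given above (log2 1.29, SE 0.43, edgeR adjusted p = 0.0125), a call lost under DESeq2 (adjusted p = 0.0996). Zfp790 had 13.1 and 12.9 CPM in Jun-Ctrl and 23.7 and 20.4 CPM in the libraries labelled Jun-cKO, a 1.71-fold rise (log2 0.78, SE 0.17, edgeR adjusted p = 0.000329). Zfp335, a nuclear receptor coregulator needed for T cell maturation, had 6.31 and 3.82 CPM against 3.15 and 2.21 CPM (log2 -0.93, SE 0.30, edgeR adjusted p = 0.0116). Its call was lost with the GC correction (log2 -0.54, adjusted p = 0.168) and without Jun-Ctrl 1 (log2 -0.47, adjusted p = 0.473). The groups were apart in each of these genes. A match of letters is a description of the window and not a measured binding site.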

How the data were processed

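Counts per gene of 4 RNA libraries (2 per group) were read as deposited by the authors, as whole read counts beside a gene length column, which was used for RPKM only. Per the submitters' processing notes the tools included STAR 2.7.2a, featureCounts 1.6.4 and edgeR 3.28.1 with the mm10 build; the sources used here give neither settings nor roles. Per the labels' protocols, RNA of sorted cells was amplified and sequenced in reads of 79 bases. No strand-marking kit is named, so reads of overlapping genes on opposite strands may not have been told apart.

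The count table was fitted with edgeR 4.0.16 in R 4.3.3: filterByExpr, TMM scaling and the quasi-likelihood test of the 2 groups without covariates, with Benjamini-Hochberg adjustment over 12656 genes at 0.05. The edgeR fit was tested on simulated data. CPM are TMM-scaled, and no error beyond the fitted SE is given where both libraries are printed. Gene positions, GC content, finger counts (pattern C-x2-4-C-x12-H-x3-5-H or C) and KRAB boxes (HMMER 3.4 profile, E-value 1e-05) came from GENCODE M21, where 283 members matched by name and 2 by a RefSeq synonym. The GC correction was a loess curve in each library.

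Alternatives were DESeq2 1.42.0, upper-quartile scaling, library totals, other count filters, the GC correction, a replicate block, other summed-count thresholds and leaving out each library. Named members were the 12 with the highest RPKM, the 10 highest and 10 lowest log2 fold changes among called members averaging 50 counts or more with groups apart, at most 4 called members of each function list by smallest p (or up to 2 by summed count where none was called), and those at the selection threshold. Genes outside this rule are said to be so in the text. The members and lists were chosen with earlier results of these data known.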

Additional observations from a re-analysis of the deposited data

How the results depend on the processing

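The numbers of members called depended on the method and the libraries. DESeq2 called 52 members higher and 17 lower, and leaving out each library in turn gave 45 to 82 higher and 12 to 22 lower. For KRAB members DESeq2 gave 34 higher and 1 lower, the GC correction gave 7 lower, and leaving out a library gave 32 to 58 higher and 1 to 3 lower. Members without the box had 13 to 23 higher and 11 to 21 lower without 1 library. All tested genes had 2992 to 4794 calls without 1 library. The median log2 fold change of the members was 0.22 with upper-quartile scaling, 0.20 with library totals, 0.24 with a filter of 50 counts in 2 libraries, 0.18 with the GC correction, 0.28 and 0.31 with thresholds of 20 and 200 summed counts, and 0.22 to 0.27 without 1 library. With the GC correction Jun was at 0.38 (adjusted p = 0.00752).

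Same-numbered libraries are not stated to pair, and their deviations had a correlation of 0.0732 over 12656 genes. With a replicate block, 91 members were higher and 29 lower, and 5426 of all tested genes were called.

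Signs were compared for the 68 named genes only, not for all 285 members. Among those genes they reversed for 7 members, none of them called in the fit reported. Zfp207 ran from -0.137 to 0.0922 over the fits without 1 library, Zfp580 was at -0.107 without Jun-Ctrl 1, and Zfp637 at -0.0281 without Jun-cKO 2. Zfp598 was at -0.000977 under upper-quartile scaling, at -0.0196 under library totals and at -0.0016 where 50 counts were required, and ran from -0.0349 to 0.106 without 1 library. Zfp664 was at -0.00844 with library totals, -0.00726 with the GC correction and -0.129 without Jun-cKO 2. Zfp57 was at -0.0354 with the GC correction and from -0.134 to 0.227 without 1 library. Zfp445 was at -0.0664 with the GC correction and from -0.0183 to 0.192 without 1 library. The cause was not tested. With 1 library left in a group, that library was assumed to vary like the other group. Over 68 named genes and 12 settings, 713 values kept their direction and side of the threshold, 71 lost a call, 3 gained one and 15 reversed. The second libraries of the groups were the shallower ones, and members near the threshold of 50 rest on few counts.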
